A study of Mus musculus with 26 samples.

Results

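Of the 65535 probe sets in the expression table of sorted mouse endothelial cells, 10912 carry no gene symbol in the annotation of the array. A probe set is a group of short array probes whose signals are summarized to 1 value. Another 53857 probe sets have 1 symbol and 766 have several. The members were chosen by the missing symbol alone, so no measured value entered the choice. They were placed by the named probe sets next to them, because the identifiers follow the genome. Where the gene changed from 1 named probe set to the next, the following gene lay on the same chromosome and strand in 3877 of 4199 cases, and 3856 of these were in coordinate order. By this measure 5019 unnamed probe sets lie between 2 named genes, 559 lie between probe sets of 1 gene, and 5334, called leading here, have identifiers before the first named probe set, of Lypla1, and cannot be placed. The members between or within genes lay on chromosomes 11 (1937), 1 (1507), 12 (942), 10 (882) and 13 (222), and 88 had no chromosome assigned. None was placed on another chromosome, so counts and shares describe this table and not the whole genome.

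The 26 arrays measured cells sorted as CD31+/CD146+, and the question was how endothelium responds to interferon gamma (IFNγ) in living mice. Tumours of MCA313-IFNγ-IND cells, which can be induced to release IFNγ, grew in PIG-Pdgfb-Cre-IFNγ-del mice, in which endothelial cells alone carry the IFNγ receptor. Their endothelium was taken without induction (0 h, 3 arrays), after 24 h (2 arrays) and after 48 h (2 arrays). J558L-IFNγ-GFP-IND tumours, inducible for an IFNγ-GFP fusion, grew in Rag-/- mice, which have the receptor on all cells and no mature T or B cells. Endothelium of the J558L tumour (2 arrays at 0 h, 3 at 24 h) and of the kidney of mice with that tumour (3 arrays at 0 h, 3 at 24 h) was sampled. 16.113 tumours, also in Rag-/- mice, were sampled 120 h after the mice received tumour-specific T cells able to produce IFNγ (competent, 3 arrays) or T cells from IFNγ-deficient mice (deficient, 5 arrays). All mice were female, aged 4 to 6 months, or 3 to 4 months for 16.113. The labels number the replicates without saying whether each came from its own animal, so the p-values measure the spread between these arrays, which may be technical.

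IFNγ binds its receptor on the cell surface and signals through Janus kinases. Transcription factors activated in this way bind gamma-activated sites (GAS) and interferon-stimulated response elements (ISRE) in promoters. In endothelium the programme is known for antigen presentation, chemokines and large families of guanylate-binding proteins and p200 proteins. Genes of such families often stand beside each other in the genome, where an unannotated probe set can have an inducible gene on 1 or both sides.

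No sequence of an unnamed probe set is held in the files used here, so the promoters of the named genes beside the responding members are shown. These 3 were chosen because members beside or inside the genes rose and the windows hold a match to a motif. The windows come from RefSeq (GRCm38.p6) and run 5′ to 3′ on the strand of the gene, up to the base before its start. Capitals mark a match to TTCNNNGAA (GAS) or to the ISRE core, which is GAAA followed by any 2 bases and GAAA again.
Serpina3f, chr12:104214294-104214543, plus strand, GAS: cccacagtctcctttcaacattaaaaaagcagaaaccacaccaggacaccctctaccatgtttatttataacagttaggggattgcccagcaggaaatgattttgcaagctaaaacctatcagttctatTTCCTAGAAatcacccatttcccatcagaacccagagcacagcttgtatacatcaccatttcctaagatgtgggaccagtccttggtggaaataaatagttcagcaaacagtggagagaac
Serpina3g, chr12:104235897-104236146, plus strand, GAS: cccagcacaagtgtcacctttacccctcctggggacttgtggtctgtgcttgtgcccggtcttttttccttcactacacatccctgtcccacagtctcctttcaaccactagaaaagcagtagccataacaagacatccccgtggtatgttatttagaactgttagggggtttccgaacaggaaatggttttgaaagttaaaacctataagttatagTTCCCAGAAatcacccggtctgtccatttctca
Ifi206, chr1:173491319-173491568, minus strand, ISRE: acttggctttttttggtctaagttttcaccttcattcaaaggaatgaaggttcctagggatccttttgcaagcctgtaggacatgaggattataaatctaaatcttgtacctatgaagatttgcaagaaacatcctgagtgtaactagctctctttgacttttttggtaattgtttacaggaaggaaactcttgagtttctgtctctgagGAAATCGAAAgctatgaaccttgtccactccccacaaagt
Both strands were searched in windows from 250 bases before to 50 after each start. The GAS letters read the same on both strands, and no overlap with another motif was examined. The match began 121 bases before the start of Serpina3f, 33 before that of Serpina3g and 40 before that of Ifi206. Of all 32851 windows, 8.30% held the GAS letters and 3.44% the ISRE letters, and of all 27025 genes 9.55% and 3.99% held them in any window. Of the 36 named genes that flank the members described outside the leading ones, 29 had a window, and 4 of these (13.8%) held the GAS letters in any window (Serpina3f, Serpina3g, Pom121l12 and Gm12216) and 5 (17.2%) the ISRE letters (Ifi206, Ifi211, Ifi203, Ifi213 and Gm12216). Serpina3f and Serpina3g flank the same block, and the Ifi genes belong to the same cluster, so these shares rest on few places. The matches of Gm12216 began after its start, and Pom121l12 flanks a block that fell in kidney. A match is a description of letters and not a binding site.

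The unnamed probe sets were dim. On each array 24.6% to 32.5% of them lay above the median of all probe sets, against 53.3% to 54.9% of the named ones. Above the median on all 26 arrays were 436 of the 5334 leading members, 51 of the 559 within genes and 700 of the 5019 between genes, and above it on no array were 1942, 243 and 2573. Members in order fell into 2780 blocks, each an unbroken series of identifiers with no symbol, of which 1096 held 2 or more probe sets and the largest 29. Values of 430 members were identical to those of another probe set on all arrays, and 2 of these, the leading members 17205259 and 17209449 with 1 series of values between them, passed the test in 16.113 and none in the other comparisons. Changes are differences of mean log2 values between groups of 1 separately normalized set of arrays, with the standard error (SE) of the fit. The change uses the arrays of that set only, but the SE and p-value use the spread pooled over all 9 groups. Fits to the arrays of a set alone are given at the end. A member passed the test at an adjusted p under 0.05 in limma, with the Benjamini-Hochberg adjustment over all 65535 probe sets or, for block means, over all 19580 blocks. Each value of a group is given as mean ± SD.

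The 5 measured of 10 endothelial markers had means above the array medians in all 9 groups. The summed log2 level of 4 measured leukocyte markers was 30.95 to 31.26 with competent and 28.79 to 31.05 with deficient T cells, and that of 4 fibroblast markers 34.04 to 36.70 and 36.07 to 37.09. The summed level of the endothelial markers was 62.66 to 63.86 in MCA313 at 0 h, 60.91 to 61.94 at 24 h and 59.94 to 61.81 at 48 h, and 65.64 to 65.74 and 63.26 to 63.79 in J558L tumour at 0 h and 24 h, without overlap between control and induced arrays. The endothelial selectin Sele changed by -1.61, -2.24, -1.64 and -1.26 in MCA313 24 h, MCA313 48 h, J558L tumour and 16.113, the most of the 5. In the same comparisons Pecam1 changed by -0.06, -0.12, -0.04 and -0.04, and Icam2 by 0.17, 0.28, 0.01 and -0.03. Cd34 changed by -0.11, 0.02, -0.02 and 0.06, and Selp by -0.16, -0.26, -0.53 and -0.43. Sums of 3 measured plasma cell markers were 32.69 to 33.00 with competent and 33.62 to 34.74 with deficient T cells, and 34.00 to 34.47 at 0 h and 34.57 to 34.69 at 24 h in MCA313, and those of 2 pericyte markers 17.85 to 18.17 and 16.68 to 17.53 in kidney at 0 h and 24 h, again apart. No marker gene passed the test in any comparison, and the part of other cells in the results was not tested. For the 2 erythroid and the 3 kidney epithelium markers nothing was measured.

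After IFNγ, the unnamed probe sets that passed the test were mostly higher. In MCA313 tumour at 24 h, 28 of the 10912 were higher and 2 lower, where 0.117% and 0.0183% of all probe sets were. At 48 h 37 were higher and 0 lower, against 0.165% and 0.0824% of all. The 24 h and 48 h comparisons share their control arrays. In J558L tumour 6 were higher and 1 lower, against 0.0687% and 0.0229% of all. In J558L kidney the counts were 85 and 2, against 0.534% and 0.356% of all. With competent T cells in 16.113 tumour they were 80 and 36, against 0.777% and 1.24% of all. As shares of the members, 0.779% were higher and 0.0183% lower in kidney, and 0.733% and 0.330% in 16.113. Of the named probe sets, 0.423% were lower in kidney and 1.42% in 16.113, and the part of the lower signal of the members in this was not tested. Among members between genes the higher share was 0.717% in kidney and 0.677% in 16.113, and among those within genes 0.537% and 0.537%. Leading members were higher in 0.469% and 0.637% at 24 h and 48 h in MCA313, where 0.0598% and 0.0598% of the members between genes were.

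Between 48 h and 24 h in MCA313, no unnamed probe set passed the limma test, where 0.0061% of all did, and 605 had an unadjusted p under 0.05. For the response of J558L tumour minus that of kidney the count was also 0, against 0.00305% of all, with 412 at an unadjusted p under 0.05. The median change of all unnamed probe sets against control was 0.09 and 0.08 in MCA313 at 24 h and 48 h, 0.03 in J558L tumour, 0.06 in kidney and 0.07 in 16.113, and that of the named ones was -0.06, -0.05, -0.03, -0.03 and -0.04. Changes below are read against shifts of this size.

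Most calls among the leading probe sets came from 1 stretch. It holds 54 successive probe sets, from identifier 17203129 to 17203237, that were higher than control in all 5 comparisons. The stretch was found by that pattern, so its direction is a description and not a test. The next longest such stretch among the leading probe sets held 9 members, and the longest one lower in all 5 comparisons held 6. Identifiers step by 2 from member to member, except after the 50th member, 17203227, where the next is 17203231. The 4 members after this wider step passed in no comparison, with median changes of 1.05, 1.04, 0.97, 1.60 and 0.91 in MCA313 24 h, MCA313 48 h, J558L tumour, kidney and 16.113.

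In MCA313 tumour the mean of the 54 was 5.31, 5.89 and 6.07 at 0 h, 8.47 and 8.11 at 24 h, and 8.70 and 8.30 at 48 h. In J558L tumour it was 6.53 and 6.86 at 0 h and 8.45, 8.49 and 8.88 at 24 h. Both tumours had every induced array above every control array. In kidney the mean was 6.15, 6.44 and 6.47 at 0 h and 8.92, 9.45 and 9.57 at 24 h. In 16.113 tumour it was 4.99, 5.28, 5.01, 5.23 and 4.56 with deficient and 7.61, 7.22 and 7.19 with competent T cells. Groups did not overlap there either. Among the other 5280 leading probe sets the group means were 4.66 to 5.34, and those that passed as higher numbered 1, 6, 0, 3 and 12 in the same order of comparisons, and as lower 0, 0, 1, 1 and 7. These 31 probe sets each passed in 1 comparison and none in 2.

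The median change over the 54 was 2.69 in MCA313 at 24 h (range 0.46 to 4.49), a ratio of 6.45, with 24 members past the test. At 48 h it was 2.98 (0.47 to 4.96), a ratio of 7.88, with 28 past the test. Of the members, 23 passed at both times. In J558L tumour the median was 1.997 (0.09 to 3.11), a ratio of 3.99, with 5 past the test, and in kidney 3.01 (0.53 to 4.85), a ratio of 8.04, with 43. In 16.113 it was 2.29 (0.15 to 4.65), a ratio of 4.88, with 31. The tumour response of J558L minus that of kidney was positive in 5 of the 54 with a median of -1.06, and none passed the test of that difference. From 24 h to 48 h in MCA313, 37 were higher with a median of 0.24, and none passed. Leaving out 1 array moved the number past the test to between 8 and 24 at 24 h, 10 and 26 at 48 h, 0 and 3 in J558L tumour, and 26 and 37 in kidney, with the lowest number without 24 h replicate 2, 48 h replicate 1, 0 h replicate 1 of J558L tumour and 24 h replicate 3 of kidney. In 16.113 the number stayed between 28 and 31.

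The stretch ends by definition where a probe set was not higher in all 5 comparisons, so its edges are a description. The probe set before it, 17203127, had changes of 0.05, -0.54, 0.42, -1.61 and 0.14 in the 5 comparisons, and the probe set after it, 17203239, of 0.28, 0.27, 0.01, -0.01 and 0.18. The 30 probe sets on each side had medians of 0.29, 0.41, 0.19, 0.26 and 0.18, and none of them passed, although 1 reached 3.56 in MCA313 at 48 h. Members differed among themselves in how often they passed. Of the 54, 5 passed in all 5 comparisons, 17 in 4, 4 in 3, 6 in 2, 14 in 1 and 8 in none. Of these 8, 2 lay above the array median on no array, and 4 are the ones after the wider step at 17203227.

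Probe set 17203191 passed in all 5. It read 4.50, 4.42 and 4.89 in MCA313 controls, 7.75 and 8.20 at 24 h, and 8.17 and 7.85 at 48 h. In J558L tumour it went from 5.24 and 6.09 to 8.63, 8.49 and 9.21, a rise of 3.11 ± 0.435 (SE, adjusted p = 0.0052 in limma), lost without 0 h replicate 1 (adjusted p = 0.177). Controls lay below the array median and induced arrays above it. In kidney it read 3.74, 4.22 and 4.42 at 0 h and 8.53, 8.84 and 9.22 at 24 h, a rise of 4.74 ± 0.389 (SE, adjusted p = 3.47e-06 in limma). In 16.113 the values were 4.38, 3.93, 4.68, 4.27 and 3.54 with deficient and 7.94, 6.12 and 7.41 with competent T cells. No array of an exposed group overlapped its controls in any set.

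Probe set 17203181 also passed in all 5. In 16.113 it read 6.50, 7.08, 6.74, 5.49 and 5.10 with deficient and 10.40, 10.61 and 10.67 with competent T cells, a rise of 4.37 ± 0.367 (SE, adjusted p = 5.01e-06 in limma). In J558L tumour it went from 7.81 and 8.34 to 10.46, 10.76 and 11.18, a rise of 2.72 ± 0.458 (SE, adjusted p = 0.0215 in limma), and there only the fit without 24 h replicate 1 kept the call (others 0.063 to 0.408). The spread was wider with deficient than with competent T cells, and the groups were apart. Probe set 17203211 rose by a similar amount in 16.113, from 3.88, 4.90, 5.37, 3.97 and 3.26 to 9.23, 9.02 and 8.53 (4.65 ± 0.378, adjusted p = 5.01e-06 in limma). In MCA313 at 48 h it went from 5.36, 6.06 and 6.58 to 10.27 and 9.66 (3.97 ± 0.472, adjusted p = 0.000317 in limma). Every exposed array of this member was above every control array of its set.

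Members of the stretch started from different levels. Probe set 17203221 read 2.07, 2.25 and 3.06 in MCA313 controls, below the array median, and 6.97 and 6.94 at 24 h and 7.73 and 7.11 at 48 h. Its rises of 4.49 ± 0.671 (adjusted p = 0.00425 in limma) and 4.96 ± 0.671 (adjusted p = 0.00124) were the largest that passed without overlap at both times, and the 24 h call was lost without 24 h replicate 2 (adjusted p = 0.0681). Probe set 17203225 began above the array median, at 7.58, 8.31 and 8.87, and reached 11.91 and 11.64 at 24 h and 12.07 and 11.82 at 48 h. In J558L tumour it went from 8.54 and 9.82 to 11.72, 11.76 and 11.97, a rise of 2.64 ± 0.482 (adjusted p = 0.0364 in limma) that passed without 0 h replicate 2 but not without any other array (adjusted p 0.0932 to 0.782). So members with control means on both sides of the array median passed. The control mean was above the array median for 25 of the 54 in MCA313, 31 in J558L tumour, 30 in kidney and 16 in 16.113.

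Probe set 17203171 had the largest rise in kidney that passed, from 2.97, 6.90 and 6.34 to 9.72, 10.23 and 10.81 (4.85 ± 0.703, adjusted p = 0.00136 in limma). Replicate 1 of the kidney controls stood below the other controls there, and also at 17203149, with 3.63 against 6.02 and 6.62, and at 17203205, with 2.25 against 7.01 and 3.79. Induced arrays read 9.53, 9.79 and 10.29 at 17203149 and 8.46, 9.47 and 9.60 at 17203205. None of these overlapped a control. The call at 17203205 was lost without 0 h replicate 1 or 3 or 24 h replicate 2 or 3 (adjusted p up to 0.0745 in limma). Those at 17203171 and 17203149 held without any 1 array.

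Outside the stretch, of the blocks of 2 or more probe sets described here, the one with the largest rises lies between Serpina3f and Serpina3g, serine protease inhibitors of clade A on chromosome 12. It holds 3 probe sets, 17278279 to 17278281, on the plus strand. Of blocks with 2 or more unnamed probe sets, 1097 in all, 2 passed as higher and 0 as lower in MCA313 at 24 h, 1 and 0 at 48 h, 0 and 0 in J558L tumour, 12 and 6 in kidney, and 9 and 7 in 16.113. Of all 19580 blocks, 0.403% passed as higher and 0.107% as lower at 24 h, 0.546% and 0.286% at 48 h, 0.174% and 0.0868% in J558L tumour, 1.07% and 0.587% in kidney, and 1.17% and 1.33% in 16.113. By direction the members' shares were near or under these.

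The block between Serpina3f and Serpina3g read 4.63, 6.94 and 7.59 in MCA313 controls, 9.82 and 9.79 at 24 h, and 10.04 and 9.69 at 48 h. Control replicate 1 was far below the other controls. The rise was 3.42 ± 0.652 (SE, adjusted p = 0.016 in limma) at 24 h and 3.48 ± 0.652 (adjusted p = 0.0114) at 48 h. Without that control array it was 2.54 at 24 h (adjusted p = 0.0636), without 24 h replicate 1 or 2 the adjusted p was 0.0808 or 0.159, and without 48 h replicate 1 it was 0.143 for the 48 h comparison. In kidney the block went from 5.37, 6.47 and 8.24 to 9.88, 9.95 and 10.43 (3.39 ± 0.583, adjusted p = 0.00245 in limma). In 16.113 it read 5.93, 6.09, 5.68, 5.95 and 5.64 with deficient and 9.06, 8.57 and 8.87 with competent T cells (2.98 ± 0.521, adjusted p = 0.00296 in limma). These 2 calls held without any 1 array. In J558L tumour the values were 7.36 and 7.24 at 0 h and 9.53, 9.28 and 9.71 at 24 h, apart but not past the test (2.21 ± 0.652, adjusted p = 0.263 in limma).

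The genes on both sides, whose promoters with GAS letters are printed above, moved in the direction of the block. Of the 6 probe sets of Serpina3f, 5 passed as higher in kidney with a median change of 4.60, and 6 in 16.113 with a median of 4.17. All 4 of Serpina3g passed in both, with medians of 3.57 and 2.34. The unnamed probe sets had medians of 3.34 in kidney and 3.04 in 16.113, with 2 and 3 of the 3 past the test. In MCA313 no probe set of either gene passed. Medians of Serpina3f, Serpina3g and the unnamed ones were 1.88, 2.23 and 3.28 at 24 h, and 1.79, 1.88 and 3.60 at 48 h. In J558L tumour they were 1.72, 2.09 and 2.24, with 1, 0 and 0 past the test.

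Between Hmga2-ps1, a pseudogene, and 2310043L19Rik on chromosome 1 lie 19 unnamed probe sets in 6 blocks. In kidney 3 of these blocks passed. The block from 17230243, of 4 probe sets, went from 9.40, 9.34 and 9.50 to 10.68, 10.68 and 10.81 (1.31 ± 0.198, adjusted p = 0.000821 in limma). The others, of 3 probe sets from 17230239 and 6 from 17230232, rose by 0.92 ± 0.156 and 0.88 ± 0.17. Spread within groups was small at this place. In 16.113 the first of them read 8.95, 8.45, 8.95, 9.38 and 9.11 with deficient and 9.74, 9.78 and 10.29 with competent T cells (0.97 ± 0.177, adjusted p = 0.00407), and the second rose by 0.88 ± 0.139. In J558L tumour the first read 9.69 and 9.53 at 0 h and 10.43, 10.77 and 10.73 at 24 h (1.03 ± 0.222), just short of the test (adjusted p = 0.0558 in limma), and in MCA313 8.88, 9.11 and 9.11 at 0 h and 9.85 and 10.16 at 24 h (0.97 ± 0.222, adjusted p = 0.0532).

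Members also rose within the Ifi2 cluster of chromosome 1, whose p200 proteins bind DNA and are known interferon products. Inside Ifi206, a block of 2 probe sets from 17230008 went from 7.92, 7.86 and 7.55 to 10.12, 10.17 and 10.09 in kidney (2.35 ± 0.525, adjusted p = 0.0214 in limma). In 16.113 it read 4.76, 4.96, 4.94, 3.85 and 4.79 with deficient and 7.69, 6.74 and 5.05 with competent T cells (1.83 ± 0.469, adjusted p = 0.0419). The lowest competent array was only just above the highest deficient one. The named probe sets of Ifi206, 3 in all, had median changes of 2.34 and 1.77 with 2 past the test in both. Leaving out any 1 array of the comparison took the kidney call past 0.05 (adjusted p 0.0543 to 0.0838), and in 16.113 only the fit without competent replicate 3 kept it (others 0.0547 to 0.155).

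Probe set 17230024, between Ifi206 and Ifi213, went from 5.08, 3.39 and 2.97 to 7.81, 8.69 and 8.81 in kidney, a rise of 4.62 ± 0.752 (SE, adjusted p = 0.00365 in limma). Its controls lay below the array median. Of the 3 probe sets of Ifi213 all were higher there, with a median of 1.96 and none past the test. Probe set 17230093, beside Ifi211 and Ifi203, read 6.94, 8.40 and 7.58 in MCA313 controls and 10.53 and 9.77 at 48 h. As a block of its own it passed at 48 h (2.51 ± 0.568, adjusted p = 0.0384 in limma) and in 16.113 (1.76 ± 0.455, adjusted p = 0.0439), where 1 of the 3 competent arrays, at 7.61, lay within the range of the deficient ones (6.85 to 7.87).

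Single probe sets between other genes passed in several sets of arrays. Probe set 17275124, on chromosome 12 between Dgkb, a diacylglycerol kinase, and Etv1, an ETS transcription factor, read 4.31 and 5.47 in J558L tumour at 0 h and 8.22, 7.87 and 7.89 at 24 h (3.10 ± 0.576, adjusted p = 0.0385 in limma). In kidney it went from 6.28, 6.26 and 4.75 to 7.67, 8.37 and 8.24, and in 16.113 from 5.09, 4.11, 3.15, 4.02 and 2.49 to 6.60, 6.11 and 5.58. In MCA313 it read 4.73, 4.27 and 4.89 at 0 h, 6.42 and 6.19 at 24 h, and 6.86 and 7.27 at 48 h. No exposed array overlapped its controls. Among the blocks outside the stretch it was the one that passed in all 4 sets (in MCA313 at 48 h, adjusted p = 0.0485 in limma). Leaving out any 1 array of J558L tumour took its probe set call there past 0.05 (adjusted p 0.0605 to 0.737). No probe set of Dgkb or Etv1 passed as higher in any comparison, and 3 of the 25 of Dgkb were lower in kidney.

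Probe set 17216273, between Cntnap5b and Gm20268 on chromosome 1, read 7.55, 7.48 and 8.25 in MCA313 controls, 9.47 and 9.42 at 24 h, and 9.57 and 9.28 at 48 h. As a block it rose by 1.68 ± 0.285 (adjusted p = 0.00608 in limma) and 1.67 ± 0.285 (adjusted p = 0.00567). In 16.113 it went from 7.25, 6.93, 7.005, 7.34 and 7.26 to 9.03, 9.18 and 9.28 (2.003 ± 0.228, adjusted p = 4.01e-05). The groups were apart in both sets. In kidney the controls, 10.36, 9.06 and 9.33, reached close to the induced 10.51, 10.83 and 10.39, and the change of 0.99 ± 0.255 missed the test (adjusted p = 0.0539), as did 1.34 ± 0.285 in J558L tumour (adjusted p = 0.0524).

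Next to Wars, the cytoplasmic tryptophanyl-tRNA synthetase, a known IFNγ product, lies probe set 17283946, with Begain on its other side. It went from 4.49, 6.55 and 6.07 to 8.60, 9.03 and 9.54 in kidney (as a block 3.35 ± 0.657, adjusted p = 0.00822 in limma) and from 4.94, 4.65, 4.57, 4.30 and 3.69 to 7.67, 5.34 and 7.67 in 16.113 (2.46 ± 0.587, adjusted p = 0.0269). Competent replicate 2 was the low one. Of the 13 probe sets of Wars, 10 passed as higher in kidney (median 1.69) and 12 in 16.113 (median 2.74), and none of the 5 of Begain in either.

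In all, 47 unnamed blocks passed in the same direction in 2 or more of the 4 sets of arrays, and all 47 were higher. Of these, 35 are single probe sets of the leading stretch, and their direction was fixed by how the stretch was found. The other 12 lie in order along the genome. The same count was not made for named blocks. The block between Serpina3f and Serpina3g passed in 3 sets. None of the leading probe sets outside the stretch recurred, and no block recurred as lower.

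Some members lie within a single gene that had a called probe set of its own. In kidney there were 35 of these, of which 22 changed in the direction of the gene and 2 passed (5.71%). In 16.113 there were 80, of which 53 changed in that direction and 3 passed (3.75%). Of all 559 members within genes, 0.537% passed in each of these comparisons.

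Blocks beside other genes also rose in kidney. The 2 probe sets from 17262741, between Rad50, a DNA repair protein, and Gm12216 on chromosome 11, went from 8.27, 8.15 and 7.49 to 9.16, 9.27 and 9.28 (1.27 ± 0.31, adjusted p = 0.0411 in limma). Without any 1 array its adjusted p was 0.0506 to 0.188. The 29 probe sets from 17223542, between Mpp4 and Ica1l on chromosome 1, went from 6.68, 6.65 and 6.99 to 7.78, 7.88 and 7.54 (0.96 ± 0.218, adjusted p = 0.0241). This largest of the unnamed blocks had 1 of its 29 probe sets past the test by itself, and the call was lost without control replicate 1 or 2 or induced replicate 1 or 2 (adjusted p 0.0812 to 0.117). In MCA313 at 24 h, 4 probe sets from 17284340, between the immunoglobulin genes Ighv7-3 and Ighg3, went from 4.58, 4.88 and 4.46 to 6.00 and 5.68 (1.20 ± 0.2, adjusted p = 0.0049), near the array median, and without 24 h replicate 1 the change was 1.04 (adjusted p = 0.0718).

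Falls were fewer, with 2 members in MCA313 at 24 h and 1 in J558L tumour, and the others in kidney and 16.113. In kidney 7 probe sets from 17247357, between 1700042O10Rik and Pom121l12 on chromosome 11, went from 8.04, 8.23 and 8.01 to 6.90, 7.19 and 6.73 (-1.16 ± 0.25, adjusted p = 0.0177 in limma). Another 7 from 17217343, between Kiss1, the kisspeptin gene, and Etnk2, an ethanolamine kinase, went from 8.51, 10.13 and 8.93 to 7.75, 8.08 and 8.21 (-1.17 ± 0.291, adjusted p = 0.0439). Control replicate 2 was the high array, and without it the change was -0.71 (adjusted p = 0.178). The first of these blocks lost its call without control replicate 2 or induced replicate 1 or 3 (adjusted p 0.0618 to 0.0921). In J558L tumour the 2 blocks changed by 0.28 ± 0.28 and 0.14 ± 0.326. The differences of 1.43 ± 0.376 and 1.32 ± 0.437 between tumour and kidney responses did not pass (adjusted p = 0.382 and 0.72 in limma).

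Between Adamts14, a procollagen protease, and Eif4ebp2, a repressor of translation, on chromosome 10, all 17 unnamed probe sets were lower in MCA313 at 48 h, in J558L tumour and in kidney, and 15 in the other comparisons. Medians were -0.64, -0.48, -0.55, -0.76 and -0.32 in MCA313 24 h, MCA313 48 h, J558L tumour, kidney and 16.113. Of these, 1 passed the test: 17241215 in kidney, from 10.62, 10.96 and 10.95 to 9.41, 10.26 and 9.75 (-1.03 ± 0.238, adjusted p = 0.0402 in limma). Its call was kept without induced replicate 2 and lost without any other array (adjusted p 0.0611 to 0.183). Among the leading probe sets, 17201027 fell in kidney from 7.33, 6.81 and 6.48 to 5.76, 5.82 and 5.82 (-1.07 ± 0.227, adjusted p = 0.0234 in limma), a call kept without control replicate 3 and lost without any other array (adjusted p 0.0616 to 0.134).

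In 16.113 the largest falls lay between Arpc5, a subunit of the Arp2/3 actin complex, and Lamc1, the laminin gamma 1 chain of basement membranes, on chromosome 1. A block of 17 probe sets from 17228141 read 7.31, 8.22, 7.84, 7.31 and 7.35 with deficient and 6.63, 5.95 and 5.54 with competent T cells (-1.57 ± 0.3, adjusted p = 0.0062 in limma). A block of 3 from 17228137 read 7.91, 9.48, 9.17, 8.78 and 8.59 and then 7.64, 5.71 and 6.83 (-2.06 ± 0.435, adjusted p = 0.0123). Groups did not overlap in either. Without competent replicate 3 the first missed the test (-1.32, adjusted p = 0.0556), and without competent replicate 2 the second (-1.56, adjusted p = 0.0922). Of the 44 unnamed probe sets of the span 36 were lower, with a median of -0.61. No probe set of Arpc5 or Lamc1 passed in 16.113, with medians of -0.21 over 6 and -0.30 over 25. Single members fell by more: 17228146 went from 6.10, 8.98, 7.84, 6.26 and 7.31 to 2.77, 4.45 and 2.93 (-3.91 ± 0.736, adjusted p = 0.00747 in limma), and 17228138 by -2.52 ± 0.361.

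Between Fkbp3, a nuclear prolyl isomerase, and Rpl10l, a ribosomal protein, on chromosome 12, 22 probe sets from 17281429 read 5.75, 5.39, 5.96, 5.98 and 5.77 with deficient and 4.95, 4.68 and 4.14 with competent T cells (-1.18 ± 0.237, adjusted p = 0.00899 in limma). These levels lie around and below the array median. Without competent replicate 3 the change was -0.95 (adjusted p = 0.0768). In J558L tumour the block read 6.28 and 6.41 at 0 h and 5.13, 5.55 and 4.44 at 24 h (-1.30 ± 0.296, adjusted p = 0.0748 in limma), and in MCA313 5.55, 5.39 and 5.55 at 0 h and 4.65 and 4.35 at 24 h (-0.99 ± 0.296, adjusted p = 0.185). Groups were apart in both, short of the test. The block changed by -0.37 ± 0.296 in MCA313 at 48 h (adjusted p = 0.771 in limma) and by -0.55 ± 0.265 in kidney (adjusted p = 0.44). Its member 17281433 fell in MCA313 at 24 h, from 6.94, 6.29 and 6.22 to 2.12 and 2.81 (-4.02 ± 0.75, adjusted p = 0.0282), and in 16.113, from 6.01, 6.24, 7.74, 6.94 and 7.11 to 4.26, 2.49 and 2.12 (-3.85 ± 0.6, adjusted p = 0.00168). The MCA313 call was lost without any 1 of the arrays but control replicate 3 (adjusted p 0.0736 to 0.15). Another member, 17281440, fell in 16.113 by -2.83 ± 0.396.

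Between Gast, the gastrin gene, and Klhl10 on chromosome 11, 12 probe sets from 17256366 read 10.12, 9.98, 10.13, 10.05 and 10.17 with deficient and 9.42, 8.92 and 9.42 with competent T cells (-0.84 ± 0.157, adjusted p = 0.00522 in limma). The deficient arrays lay within a narrow band above all competent ones. In MCA313 the block read 11.16, 10.89 and 11.05 at 0 h, 10.46 and 10.36 at 24 h, and 10.46 and 10.50 at 48 h, apart but not past the test (adjusted p = 0.222 and 0.273 in limma). All 14 unnamed probe sets of the span were lower in kidney and in 16.113, with medians of -0.42 and -0.86 and 0 and 5 past the test, and none of the probe sets of Gast and Klhl10 passed. A last block of 5, from 17220911 between Gm15867 and A130010J15Rik, read 6.40, 6.64, 6.35, 6.24 and 6.10 and then 5.25, 5.67 and 5.38 (-0.91 ± 0.23, adjusted p = 0.0383), a call that 6 of the 8 fits without 1 array did not keep (adjusted p 0.0542 to 0.133). Probe set 17268337, between Gm11529 and Snx11, fell from 7.25, 7.12, 7.22, 6.52 and 7.76 to 6.30, 4.20 and 3.89 (-2.37 ± 0.427, adjusted p = 0.00532 in limma).

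Unnamed members that fell stood beside falling named genes at some places. In 16.113, 7 of 29 lower members in order (24.1%) lay beside a gene called lower, as did 14.5% of all 5578 members in order. For higher members the numbers were 8 of 37 (21.6%) against 6.87%, and in kidney 6 of 39 (15.4%) against 2.80%. In these counts most members that passed had no named neighbour called in their direction. The counts include the members not reported here, and adjacent probe sets of the same place are not independent.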

How the data were processed

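Expression was measured on Affymetrix arrays in 26 samples of sorted endothelial cells in 9 groups. The authors deposited normalized log2 values, 1 per probe set and array. The submitters' processing notes name the tools Affymetrix Expression Console and limma with no version, and how the arrays were normalized is not stated in the sources read here. Within 4 sets of arrays (MCA313 tumour, J558L tumour, J558L kidney, 16.113 tumour) 1.24% to 7.59% of exact values were shared between arrays, against at most 0.00586% between sets, so levels were compared within sets. Values were 1.40 to 14.34 and array medians 5.62 to 6.46. Precision is limited by the number of arrays, and background was not measured.

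Members, lists, comparisons and the choice of items to name were made with earlier results of these data known. Named were up to 10 unnamed blocks of 2 or more probe sets and up to 5 unnamed probe sets per direction and comparison, past the test without overlap between groups, by size of change, and unnamed blocks past the test in the same direction in 2 or more sets. Items whose higher group mean lay below the array medians were counted only. Another 21 members in order, among them blocks that passed the test in kidney and 16.113, are not reported here, although counts and shares over all members and named results include them. Group means of the 9 groups were estimated for each of the 65535 probe sets, and for the means of 19580 blocks, by a linear model in limma 3.58.1 (R 4.3.3), without a filter on low values. Moderated two-sided tests of 7 contrasts were adjusted by Benjamini-Hochberg at 0.05. Simulated data of 65535 probe sets were fitted for MCA313 24 h, MCA313 48 h, J558L tumour, kidney and 16.113, in this order. Of 100 probe sets changed by 4-fold, 21%, 35%, 45%, 47% and 61% were recovered. Of 100 changed by 2-fold, 3%, 3%, 3%, 6% and 15% were. Unchanged probe sets made up 0%, 7.32%, 5.88%, 1.85% and 7.32% of the calls. Alternatives were a filter at the 50th percentile in 2 arrays, quantile normalization within sets, a trended robust variance prior, the arrays of a set alone, the replicate number as a block, block medians, and leaving out each array. Same-numbered arrays of different groups within a set did not deviate together (correlations -0.056 to 0.039). J558L tumour and kidney arrays were not compared in this way, and their responses were fitted as independent. Promoter windows came from the RefSeq table of GRCm38.p6, and the genome build of the array is not stated in the sources read here.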

Additional observations from a re-analysis of the deposited data

Results flagged for a closer look

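The only group of 5 arrays, 16.113 with deficient T cells, was examined in 20 series of values, and 1 held an array far from the others. Chance flags about 1 in 20 such series, and these 20 come from the same arrays and are not independent. With deficient T cells in 16.113 tumour, the Ifi206 block of 2 probe sets read 3.85 in replicate 4, while the other arrays read 4.76 to 4.96. Without that array the Ifi206 rise was 1.63 (adjusted p = 0.0917 in limma).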

How the results depend on the processing

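None of the 60 named results reversed in 711 alternative values. The test was kept in 516 and lost in 195, and 30 of the 60 passed without any 1 array. With the arrays of a set alone 48 lost the test, and 4 with block medians, 1 with quantile normalization and 0 with the filter or the trended prior.

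Unnamed probe sets past the test numbered 30, 37, 7, 87 and 116 in MCA313 24 h, MCA313 48 h, J558L tumour, kidney and 16.113. With the arrays of the set alone these were 0, 0, 0, 1 and 21, and of 39, 50, 12, 92 and 82 blocks 7, 7, 0, 25 and 29 passed. With the replicate number as a block, 7, 11, 0, 26 and 32 probe sets and 12, 26, 0, 50 and 34 blocks passed. There 38 named results lost the test, although same-numbered arrays within a set did not deviate together. The trended prior gave 13 in J558L tumour and 1 for 48 h against 24 h. For that contrast the 1 block past the test became 0 under the filter, quantile normalization, trended prior, arrays alone and replicate block.

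Leaving out 1 array gave 13 to 43, 19 to 48, 1 to 8, 45 to 75 and 81 to 307 probe sets and 19 to 40, 29 to 72, 2 to 19, 59 to 81 and 59 to 215 blocks. The highest 16.113 counts, 307 and 215, came without competent replicate 1. For 48 h against 24 h the ranges were 0 to 13 and 3 to 6, and for tumour minus kidney response 0 to 1 for both.
Without control replicate 1 or 2 or 24 h replicate 2, MCA313 at 24 h had 15, 18 or 13. At 48 h it had 24 without control replicate 1 and 19 without 48 h replicate 1. J558L tumour had 1 without 0 h replicate 1, and 3, 1 and 1 without 24 h replicates 1, 2 and 3. Kidney had 57 without 0 h replicate 1, and 48 and 45 without 24 h replicates 2 and 3. All 54 members of the leading stretch stayed higher under quantile normalization and the replicate block. The filter (52 tested), trended prior and arrays alone do not alter the changes, so direction was fixed there. Without MCA313 24 h replicate 1 or 48 h replicate 1, 52 stayed higher. The number was 53 without 48 h replicate 2, J558L tumour 0 h replicate 2 or competent replicate 1. With the arrays alone 0, 0, 0, 1 and 14 passed, and with the replicate block 7, 10, 0, 23 and 22. The number of arrays, with groups of 2 to 5, limits what could be detected. Most unnamed probe sets had a low level, and the part of this in the number of calls was not tested.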
